A study of Mus musculus with 2 samples.

Results

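The promoters of long noncoding RNA (lncRNA) genes on the mouse autosomes were described by their DNA methylation in the epiblast of embryonic day 6.5. Members were the autosomal genes that RefSeq classes as lncRNA, each measured over the 500 bp before and the 500 bp after whichever gene end had more CpGs. A window needed at least 20 read counts and at least 5 covered CpGs, and 11518 of 12408 genes met both limits. Of these, 1637 lay within 1 kb of an end of a protein-coding gene (near) and 8584 lay farther than 5 kb from every such end (far). The other 1297, between those distances, are given only where the whole range of distance is shown, in lists of genes and among windows with microRNA hairpins. Each group was divided by the number of CpGs in the window into CpG-poor (under 20), CpG-intermediate (20 to 39) and CpG-rich (40 or more). The embryos were wild-type females (XX) of the strain C57Bl6/J from natural matings, without culture, and the epiblast was dissected by hand from the extraembryonic tissue. There is no treatment and no second genotype. All embryos belong to 1 group with 2 labelled samples, whose counts came as 1 table without a column for each, so no value has a replicate error and no test between conditions was possible.

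LncRNAs are transcripts without a long open reading frame. Many start in the opposite direction from the promoter of a protein-coding gene, which is called divergent transcription, and many others start from promoters of their own between genes. Most CpGs of a mammalian genome are methylated after implantation, whereas CpG islands, stretches dense in CpGs that hold many promoters, usually stay free of methylation. At imprinted loci the parental copies differ, so that the mean over both copies lies between the extremes.

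On the autosomes the table held 133245671 read counts, or 6.54 per CpG, and 66.3% of them were methylated. A read count is 1 methylated or unmethylated call at 1 CpG, so a read over several CpGs is counted at each. The median lncRNA window had 118 read counts. The window of Elf5, a trophoblast gene methylated in the embryo proper, was at 85.2% and that of the pluripotency gene Pou5f1 at 17.99%. The windows of the oocyte gene Zp3 and the liver gene Alb were at 62.3% and 81.5%. The Y chromosome had 0.0445 read counts per CpG. RefSeq gives no strand in the gene table used, and the promoter table gave it for 8708 members, in 65.7% of which the measured end was the annotated 5′ end. This share differed between groups. Near CpG-rich windows lay at 829 annotated 5′ ends and 32 annotated 3′ ends, and far CpG-poor ones at 2754 and 2033. Symbols beginning with Gm or LOC or ending in Rik made up 96.0% of the members.

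Promoter sequences from the contrasting groups are shown first. They come from RefSeq (GRCm38.p6, the build whose chromosomes are those of mm10), run 5′ to 3′ from 250 bases before to 50 bases after the annotated start, and have every CpG in capitals. Across the 5634 members with an annotated start in the measured window, all 57030 CpGs of these sequences fell on CpG positions of the count table. The first set holds CpG-rich promoters with little methylation. Phf2os1 lies beside the start of Phf2, and Chaserr and Snhg5 lie far from any protein-coding end.
Phf2os1 (chr13:48870701-48871000, plus strand): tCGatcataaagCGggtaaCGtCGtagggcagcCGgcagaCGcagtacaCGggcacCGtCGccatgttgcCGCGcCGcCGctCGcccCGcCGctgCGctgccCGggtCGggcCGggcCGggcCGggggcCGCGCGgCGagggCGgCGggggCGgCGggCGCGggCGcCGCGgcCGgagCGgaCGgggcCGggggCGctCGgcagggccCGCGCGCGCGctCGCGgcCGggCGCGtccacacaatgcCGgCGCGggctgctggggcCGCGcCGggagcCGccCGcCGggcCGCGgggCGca
Chaserr (chr7:73558346-73558645, minus strand): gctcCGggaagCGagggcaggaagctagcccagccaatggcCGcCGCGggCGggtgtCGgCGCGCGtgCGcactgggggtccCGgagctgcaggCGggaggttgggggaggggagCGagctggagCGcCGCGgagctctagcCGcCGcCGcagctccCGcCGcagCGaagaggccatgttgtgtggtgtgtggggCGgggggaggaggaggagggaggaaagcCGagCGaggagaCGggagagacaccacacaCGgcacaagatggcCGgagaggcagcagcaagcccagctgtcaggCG
Snhg5 (chr9:88522848-88523147, minus strand): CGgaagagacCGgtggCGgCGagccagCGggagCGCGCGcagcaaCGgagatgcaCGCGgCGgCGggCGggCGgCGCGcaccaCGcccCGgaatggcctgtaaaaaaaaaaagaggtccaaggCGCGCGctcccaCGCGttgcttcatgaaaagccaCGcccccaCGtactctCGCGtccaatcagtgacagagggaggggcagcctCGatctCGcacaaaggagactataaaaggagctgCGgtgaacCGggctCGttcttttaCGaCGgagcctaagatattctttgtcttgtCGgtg
The next set holds 2 far CpG-rich promoters that were methylated, shown because such windows were few. Both windows lie inside protein-coding genes, and the DNA 2 to 5 kb away was methylated as well, at 85.6% for Gm43915 and 81.8% for Gm14329.
Gm43915 (chr6:120958594-120958893, plus strand): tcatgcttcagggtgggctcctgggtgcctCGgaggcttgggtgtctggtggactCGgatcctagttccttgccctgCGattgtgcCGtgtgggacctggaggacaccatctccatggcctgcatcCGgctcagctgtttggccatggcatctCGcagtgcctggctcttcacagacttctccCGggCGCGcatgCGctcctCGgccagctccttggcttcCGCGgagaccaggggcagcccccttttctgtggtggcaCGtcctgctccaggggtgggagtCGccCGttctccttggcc
Gm14329 (chr6:135732620-135732919, plus strand): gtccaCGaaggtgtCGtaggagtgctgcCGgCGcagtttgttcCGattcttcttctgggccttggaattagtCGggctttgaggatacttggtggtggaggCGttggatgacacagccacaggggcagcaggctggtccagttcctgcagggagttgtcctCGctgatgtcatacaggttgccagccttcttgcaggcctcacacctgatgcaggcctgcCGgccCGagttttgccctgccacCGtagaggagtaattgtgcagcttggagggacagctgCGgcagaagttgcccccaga
The third set shows the class that differed most with distance, with D7Ertd143e near and unmethylated, Bcas3os1 far and methylated, and the imprinted Meg3 in between. D7Ertd143e lies beside a protein-coding 3′ end, where only 6 of 54 near windows of this class (11.1%) had low methylation by the calls below, against 25% of all.
D7Ertd143e (chr7:3218534-3218833, plus strand): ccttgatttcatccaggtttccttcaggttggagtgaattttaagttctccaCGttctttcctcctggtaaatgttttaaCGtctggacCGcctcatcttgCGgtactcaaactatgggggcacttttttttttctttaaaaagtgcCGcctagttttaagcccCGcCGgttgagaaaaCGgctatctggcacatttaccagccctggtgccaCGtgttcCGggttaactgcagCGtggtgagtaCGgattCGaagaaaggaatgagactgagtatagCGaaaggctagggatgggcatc
Bcas3os1 (chr11:85719695-85719994, minus strand): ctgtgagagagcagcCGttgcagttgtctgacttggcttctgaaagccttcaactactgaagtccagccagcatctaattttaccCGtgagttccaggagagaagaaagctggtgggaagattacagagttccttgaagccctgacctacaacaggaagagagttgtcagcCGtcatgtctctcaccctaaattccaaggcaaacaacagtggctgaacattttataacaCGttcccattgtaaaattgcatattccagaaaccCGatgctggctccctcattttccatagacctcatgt
Meg3 (chr12:109540746-109541045, plus strand): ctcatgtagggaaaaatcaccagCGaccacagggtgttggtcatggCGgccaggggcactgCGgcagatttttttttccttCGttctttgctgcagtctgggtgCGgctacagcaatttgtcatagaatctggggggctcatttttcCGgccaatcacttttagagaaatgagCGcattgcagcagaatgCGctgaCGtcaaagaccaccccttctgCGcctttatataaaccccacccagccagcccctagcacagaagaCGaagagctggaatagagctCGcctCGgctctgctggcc
The last set shows CpG-poor promoters far from other genes, Gm13648 as an exception with little methylation and Nctc1 as a methylated one.
Gm13648 (chr4:156059753-156060052, minus strand): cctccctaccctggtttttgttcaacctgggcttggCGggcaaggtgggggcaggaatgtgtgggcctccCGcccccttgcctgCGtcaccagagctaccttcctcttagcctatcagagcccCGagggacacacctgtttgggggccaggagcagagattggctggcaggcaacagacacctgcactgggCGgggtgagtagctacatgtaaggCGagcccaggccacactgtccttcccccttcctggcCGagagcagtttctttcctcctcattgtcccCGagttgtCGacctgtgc
Nctc1 (chr7:142558549-142558848, minus strand): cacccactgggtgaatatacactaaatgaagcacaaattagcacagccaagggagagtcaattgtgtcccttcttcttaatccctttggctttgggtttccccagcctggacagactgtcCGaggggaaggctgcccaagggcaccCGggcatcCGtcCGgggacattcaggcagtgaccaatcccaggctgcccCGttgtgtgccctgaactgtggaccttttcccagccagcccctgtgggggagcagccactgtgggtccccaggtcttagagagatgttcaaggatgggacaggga
Over the bases printed, Phf2os1 had 63 CpGs and 16 methylated of 1054 read counts (1.52%), and Snhg5 had 36 CpGs and 15 of 420 (3.57%). Gm43915 had 16 CpGs and 188 of 226 (83.2%), and Gm14329 had 12 CpGs and 128 of 142 (90.1%). D7Ertd143e, with 14 CpGs, was at 5.08%, Meg3, with 13, at 25% and Bcas3os1, with 5, at 75.7% of 37 read counts. Gm13648 had 9 CpGs at 5.69% and Nctc1 had 5 at 75.4%.

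The first question was how methylated lncRNA promoters are beside protein-coding genes and away from them. A level is the share of a window's read counts that were methylated. CpG-rich lncRNA promoters were almost free of methylation at both distances, CpG-poor ones were methylated at both, and the CpG-intermediate class differed widely with distance. CpG-rich windows had a median of 5.36% near (interquartile range 3.80% to 7.66%, 1083 windows) and 7.70% far (4.64% to 12.7%, 318 windows). CpG-intermediate windows had a median of 20.2% near (11.0% to 46.3%, 318 windows) and 70.9% far (44.6% to 80.9%, 1814 windows), a gap of 50.8 points. CpG-poor windows had a median of 71.5% near (59.2% to 79.5%, 236 windows) and 76.4% far (68.4% to 82.5%, 6452 windows). The near medians were close to those of autosomal protein-coding promoters measured in the same way, which were 5.50%, 22.8% and 73.7% from the richest to the poorest class. The median near window shared most of its CpGs with the window of a protein-coding end, as given below. This likeness was thus partly set by the definition of near. With the shared CpGs left out, the near medians were 6.74%, 33.4% and 74.4% in the same order.

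**Figure D1:**
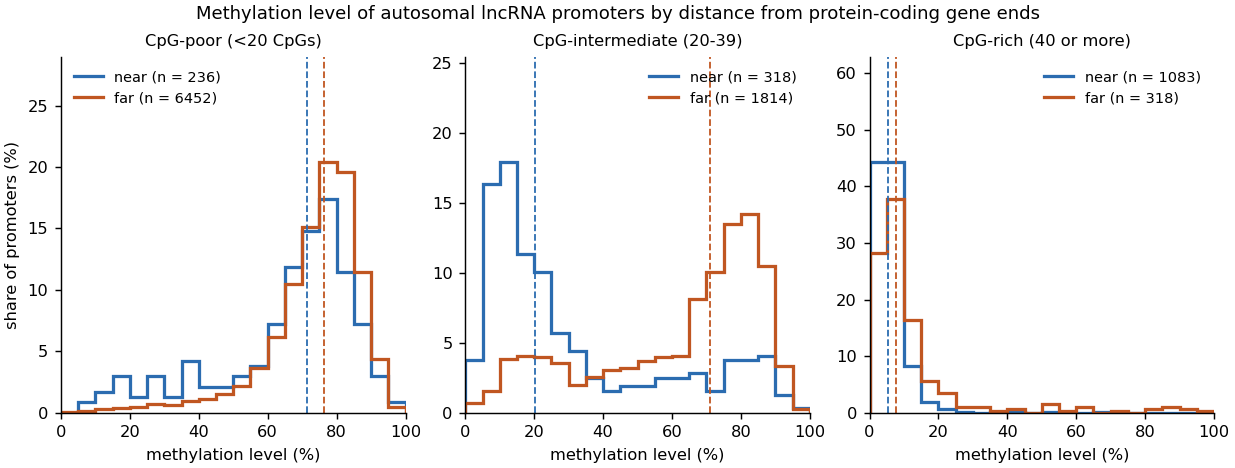
Share of lncRNA promoters (vertical axis, percent of the group) by methylation level (horizontal axis, percent, in steps of 5 points) in the 3 CpG classes, with near windows in blue, far windows in orange and medians as dashed lines. The vertical scale differs between panels. The near and far outlines overlap in the CpG-poor and CpG-rich panels, and in the middle panel the near outline peaks below 20% and the far one above 60%.

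The mix of classes differed as much as the levels. Of the near windows 66.2% were CpG-rich and 14.4% CpG-poor, whereas of the far windows 3.70% were CpG-rich and 75.2% CpG-poor. Without regard to class the median was 7.33% near and 75% far. Within classes the gap was 2.35 points (CpG-rich), 50.8 points (CpG-intermediate) and 4.89 points (CpG-poor). On each of the 19 autosomes the far CpG-intermediate median was above the near one, by 37.7 to 63.6 points (mean 49.1 ± 8.16, SD between chromosomes, n = 19). The far CpG-rich median was above the near one on 18 autosomes and the far CpG-poor one on 15. Chromosomes are parts of the same table and not replicates, so this spread describes the genome and not the embryos.

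Windows were also called one by one from their exact Clopper-Pearson 95% interval, as low when its upper bound was under 20%, high when its lower bound was over 60%, intermediate when it lay within 20% to 60%, and unresolved otherwise. These intervals, given in parentheses with single levels below, cover counting error only, and the counts carry no molecular identifiers. Near CpG-rich windows were low in 1060 of 1083 cases (97.9%) and far ones in 267 of 318 (84.0%), where all autosomal CpG-rich windows of lncRNA and protein-coding genes together gave 96.4%. Intermediate calls numbered 7 near (0.646%) and 14 far (4.40%), against 1.06% of all. High calls numbered 0 near and 8 far (2.52%), against 0.276% of all. Among CpG-intermediate windows, 128 near (40.3%) and 110 far (6.06%) were low, against 25% of all. High were 52 near (16.4%) and 55.1% of the far ones, against 34.4% of all, and intermediate were 54 near (17.0%) and 283 far (15.6%), against 15.7% of all. Among CpG-poor windows, 124 near (52.5%) and 4168 far (64.6%) were high, against 59.5% of all. Low calls were 3 near (1.27%) and 20 far (0.310%), against 0.66%, and intermediate ones 26 near (11.0%) and 266 far (4.12%), against 5.57%. The far members stood on both sides of these shares, below them for low calls and above them for high calls in the CpG-intermediate class, and the near members the other way round.

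Near CpG-intermediate windows held a median of 28 CpGs and far ones 23, so the windows were also compared in narrow steps of CpG number. Far windows were more methylated than near ones in every step up to 79 CpGs, and the gap was widest between 20 and 34. With 20 to 24 CpGs the medians were 38.4% near and 73.4% far. With 25 to 29 CpGs they were 21.4% and 68.5%, a gap of 47.1 points. With 30 to 34 CpGs they were 17.1% and 49.4%, and with 35 to 39 CpGs 10.4% and 20.3%. From 40 to 49 CpGs the gap was 4.19 points, and at 80 or more it was -0.14 points, with 3.90% near and 3.76% far. Protein-coding promoters lay between near and far lncRNA promoters with 20 to 29 CpGs (61.3% and 26.7%) and followed the near ones above that. The far windows spread over most of the scale in this range, with an upper quartile of 78.3% and a lower one of 20.2% at 30 to 34 CpGs.

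**Figure D2:**
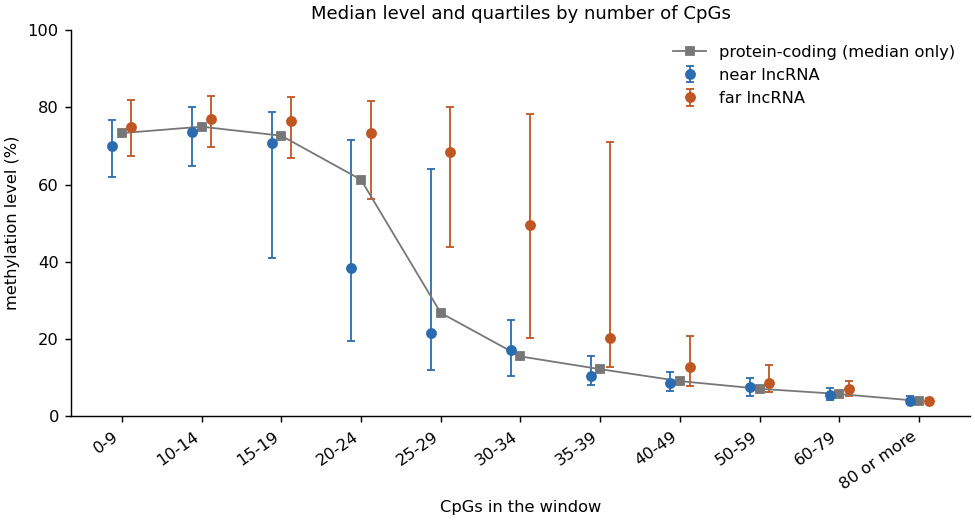
Median methylation level (vertical axis, percent) by number of CpGs in the window (horizontal axis) for near lncRNA promoters in blue, far ones in orange and protein-coding ones in gray. Bars span the quartiles of the lncRNA windows. The blue and orange points part between 20 and 39 CpGs and meet at 80 or more.

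By distance, the CpG-intermediate class kept a low level up to 1 kb and rose between 1 and 5 kb. Its median was 19.2% within 100 bp of a protein-coding end, 20.9% from there to 500 bp and 18.7% from there to 1000 bp. It was 29.6% between 1 and 2 kb, 64.2% between 2 and 5 kb, 66.7% between 5 and 20 kb, 71.9% between 20 and 100 kb and 72.6% beyond. CpG-poor windows stayed between 68.2% and 77.1% in all 8 distance steps. CpG-rich windows went from 5.28% within 100 bp to 8.26% beyond 100 kb, where only 36 remained.

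**Figure D3:**
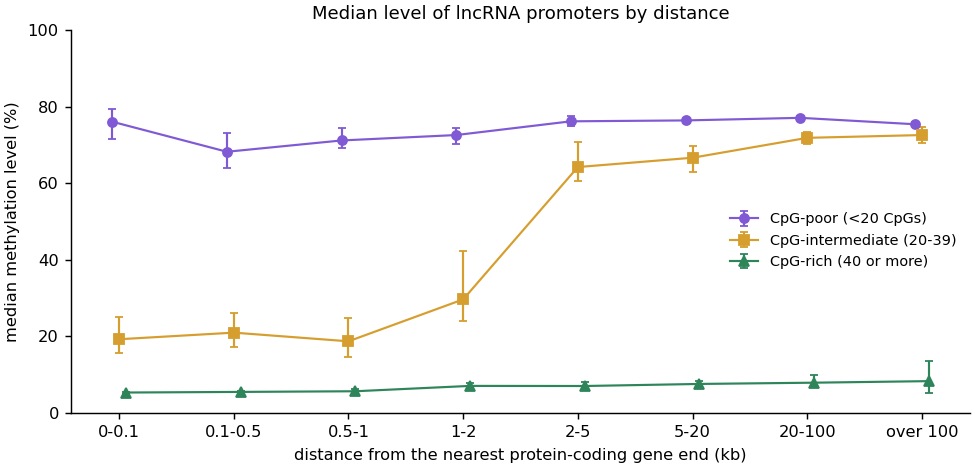
Median methylation level of lncRNA promoters (vertical axis, percent) by distance from the nearest protein-coding gene end (horizontal axis, kb) in 3 CpG classes. Bars are 95% intervals of the median over windows. The yellow CpG-intermediate line rises from 18.7% at 0.5 to 1 kb to 64.2% at 2 to 5 kb, and the other lines stay nearly level.

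Levels differed by which end of the protein-coding gene was the neighbor. Beside a protein-coding start, near CpG-intermediate lncRNA windows had a median of 15.8% (191 windows, 49.2% of them low), and beside a protein-coding 3′ end one of 70.8% (54 windows, 11.1% low), close to the far median. Of all autosomal CpG-intermediate windows 25% were low. The same order held for CpG-rich windows, with 5.26% at starts (831 windows) and 11.2% at 3′ ends (18 windows), and for CpG-poor ones, with 68.4% (106 windows) and 76.9% (67 windows). Windows at starts also held more CpGs, and CpG number was not matched here. The median CpG numbers at starts and 3′ ends were 72 and 52.5 (CpG-rich), 29 and 25.5 (CpG-intermediate) and 15 and 12 (CpG-poor). In the remaining near windows the kind of end could not be told from the promoter table. Divergent lncRNAs, whose own 5′ end lay at a protein-coding start on the opposite strand, numbered 695 CpG-rich, 129 CpG-intermediate and 55 CpG-poor windows. Their medians were 5.20%, 16.8% and 71.4%. The CpG-poor divergent median thus lay between those of all CpG-poor windows at starts (68.4%), which include the divergent ones, and of those at 3′ ends (76.9%).

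A near window overlaps that of its neighbor, and the measured CpGs are then partly the same. In the median near window 92.9% of the CpGs also lay in the window of the protein-coding end in the CpG-rich class, 83.3% in the CpG-intermediate and 65.7% in the CpG-poor class. With the shared CpGs left out, the near medians were 6.74% (567 windows), 33.4% (160 windows) and 74.4% (113 windows). The gap to far windows was then 37.5 points for the CpG-intermediate class, 0.962 points for the CpG-rich and 1.95 points for the CpG-poor class.

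Away from the measured end the groups were alike. In the flanks from 2 to 5 kb on either side the medians were 72.9% near and 75.7% far for CpG-poor windows, 73.9% and 76.1% for CpG-intermediate ones, and 74.7% and 71.1% for CpG-rich ones. Of the far CpG-rich windows with a measured flank, 307 of 317 (96.8%) were below it and 270 (85.2%) were at least 20 points below it. Of the near CpG-rich ones, 1076 of 1083 (99.4%) were below it and 1002 (92.5%) were at least 20 points below it. In the CpG-intermediate class 212 of 318 near windows (66.7%) and 539 of 1813 far ones (29.7%) were at least 20 points below their flanks. The opposite end of the same lncRNA gene had a median of 74.6% for far CpG-rich and 73.8% for near CpG-rich genes. In bins of 250 bp, the near CpG-rich median was 4.35% just outside the measured end and 55.6% from 1000 to 1250 bp inside the gene, and the far one was 6.88% and 49.6%. The near CpG-intermediate median was 20.7% just outside the gene and 76.2% at the outermost bin on that side, and the far one was 70% and 76.9%. Where the measured end was a 3′ end, the bins outside the gene lie downstream of it.

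**Figure D4:**
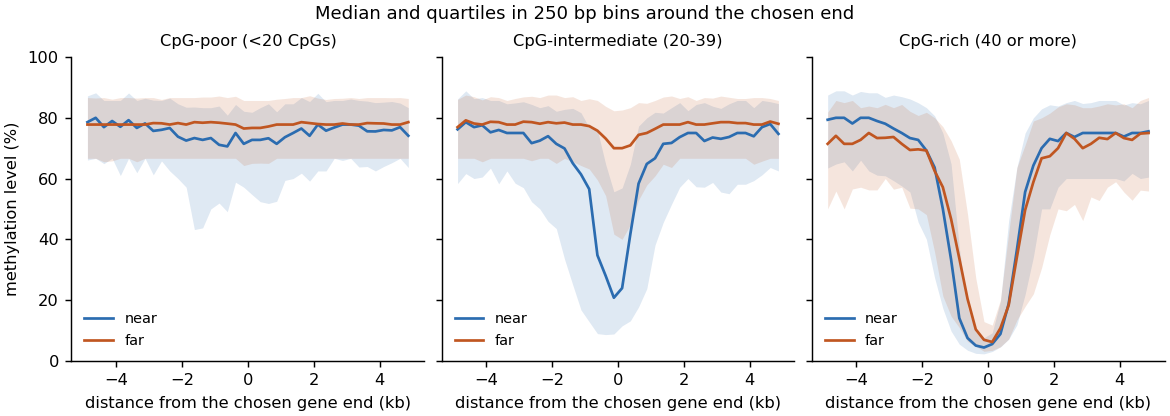
Median methylation level (lines) and quartiles (shading) in bins of 250 bp (vertical axis, percent) by distance from the measured gene end (horizontal axis, kb, positive into the lncRNA gene) for near windows in blue and far windows in orange. Both lines dip to under 10% in the CpG-rich panel, only the near line dips under 30% in the CpG-intermediate panel, and neither dips below 60% in the CpG-poor panel.

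Within the far group, the CpG-intermediate class also differed by position. Where the measured end was the annotated 5′ end the median was 66.9% (960 windows), and where it was the 3′ end 76.9% (453 windows). Inside a protein-coding gene it was 75.8% (508 windows) and outside 68.5% (1306 windows). Gene ends do not include internal starts of protein-coding genes, and 32 far CpG-intermediate windows lay within 1 kb of such a start in the promoter table. Their median was 30.2%, against 71.2% for the other 1782. In the CpG-rich class the same split gave 5.57% (59 windows) and 8.54% (259 windows).

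The sequences of far promoters were searched for short motifs of known promoter factors on both strands of the 300 bases. The GC box (GGGCGG), which Sp1 and its relatives bind, was in 35.7% of all 32851 RefSeq promoters of that length. Among far CpG-intermediate promoters with an annotated start in the window it was in 30 of 70 low ones (42.9%), 43 of 180 intermediate ones (23.9%) and 51 of 467 high ones (10.9%). Among far CpG-rich promoters it was in 68.8% of 208 low ones and 1 of 7 high ones. The E2F-type motif (TCCCGC), in 19.975% of all promoters, was in 17 of 70 low (24.3%) and 24 of 467 high (5.14%) far CpG-intermediate promoters. Both motifs hold a CpG and may overlap each other. Low and high promoters were not matched for CpG number, with which the level of far windows fell inside this class. Not every motif with a CpG was more frequent in low windows. The ETS motif (CCGGAAG), in 8.86% of all promoters, was in 4 of 70 low (5.71%) and 29 of 467 high (6.21%) far CpG-intermediate promoters, and the E-box (CACGTG), in 7.15% of all, in 4 (5.71%) and 35 (7.49%). The TATA box (TATAAA), in 13.6% of all promoters, was in 4 of 70 low (5.71%) and 48 of 467 high (10.3%), and the CCAAT box (CCAAT), in 37.4% of all, in 30% and 36.0%. Of the printed sequences, those of Phf2os1, Chaserr, Snhg5 and Gm13648 hold a GC box. A match is only a run of letters and was not tested as a binding site.

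A few far CpG-rich windows were methylated. The 8 called high had unequal coverage. Gm43915 (chromosome 6, 120958344 to 120959344) lay inside a protein-coding gene, 27298 bp from the 3′ end of Mical3. It was at 86.1% (82.7% to 89.1%) of 475 read counts over 41 CpGs, and its flanks were at 85.6%. Gm14329 (chromosome 6, 135732370 to 135733370), inside the glutamate receptor gene Grin2b, was at 90.3% (86.9% to 93.1%) of 383 read counts over 46 CpGs. Both strands gave nearly the same level in each, 86.7% and 85.4% in Gm43915 and 91.7% and 88.6% in Gm14329. The other 6 had reads on part of their CpGs only, such as 22 of 65 in Gm36816 (84.9%) and 7 of 43 in Gm29371 (83.9%), and with at least 100 read counts required 0.974% of far CpG-rich windows were high.

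The far CpG-rich windows called intermediate included Peg13 and Gm30189. Peg13, an imprinted lncRNA gene expressed in brain, was at 42.7% (38.3% to 47.2%), with flanks at 82.3%. Gm30189 lay inside a protein-coding gene, 19357 bp from the 3′ end of the imprinted gene Gnas. An internal protein-coding start lay within 1 kb of it. Gm30189 was at 34.9% (31.8% to 38.2%), with 34.9% on each strand and flanks at 10.1%, below the window. Gm26788 at 54.6%, Gm36744 at 53.5%, Gm39027 at 32.4%, Gm32287 at 26.2%, 4930433N12Rik at 25.8% and Gm5878 at 23.9% completed those with most read counts. Among the 7 near CpG-rich windows called intermediate, Hymai, which shares its window with the imprinted gene Plagl1, was at 37.1% (33.6% to 40.7%), and the Plagl1 window itself was at 37.1%. The window of 3110070M22Rik beside Tmem267 was at 41.1% of 2914 read counts, or 27.0 per CpG, where the CpGs not shared with Tmem267 were at 64.5%. The others were 4930467D21Rik beside Naa11 (53.4%), Gm671 beside the keratin gene Krt7 (29.3%), Gm39222 beside Irx3 (25%), Gm36521 (24.96%) and Gm36056 beside Epo, the erythropoietin gene (24.6%). The strands differed in Gm671, with 17.3% on plus and 42.4% on minus, and in Hymai, with 44.5% and 27.0%. In Gm36056 the measured end was the annotated 3′ end, and the other end was at 78.5%. One low window stood apart by its depth. AY036118 on chromosome 17 had 19643 read counts, or 196 per CpG, and was at 13.4%.

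At the other extreme, 20 far CpG-poor windows were low. Gm13648 (chromosome 4, 156059302 to 156060302) had most read counts and was at 10.7% (7.47% to 14.7%) of 309 read counts over 19 CpGs, with flanks at 79.1%. Gm39090 was at 8.33%, Gm39769 at 8.54%, Gm46560 at 9.88% and Gm46604 at 12.02%, with flanks between 68.4% and 81.1%. Gm41694 at 12.2%, Gm52024 at 13.4%, Gm32315 at 13.5%, 9230117E06Rik at 13.8% and Gm40943 at 14.1% followed by read counts. In 9230117E06Rik and Gm40943 the annotated 3′ end was measured, and their other ends were at 52.9% and 70.2%. The 10 with most read counts held 16 to 19 CpGs, just under the class limit of 20, whereas Gm51442 held 15 and was at 2.47% of 81 read counts.

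Genes with names other than Gm and Rik symbols, and at least 100 read counts, show the range within each group. Near CpG-rich windows ran from Phf2os1 at 1.48% (1.03% to 2.06%), Fzd10os at 1.57% and Ube2d-ps at 1.89% to Rbm46os at 15.9%, Wbscr25 at 21.2% and Hymai. Near CpG-intermediate windows ran from Has2os at 3.66%, beside the hyaluronan synthase gene Has2, D7Ertd143e at 5.08% and Cyp4x1os at 8.04% to BC051537 at 71.7%, AI507597 at 80.7% and Myoparr at 80.7%. Far CpG-intermediate windows ran from Malat1 at 8.36%, AA388235 at 8.45% and Platr22 at 8.63% to Bcas3os1 at 83.1%, Grip1os1 at 86.2% and Tbc1d22bos at 89.4%. Grip1os1 and Tbc1d22bos were measured at their annotated 3′ ends, and their 5′ ends, with fewer CpGs, were at 75.8% and 82.3%. Near CpG-poor windows ran from Lncbate3 at 60% (at its 3′ end), Gldnos at 61.6% and Hmgb4os at 62.3% to Fcnaos at 73.5%, Myhas at 76.2% and Saxo1os at 78.3%. Far CpG-poor windows ran from Lncenc1 at 9.93%, Ttc39aos1 at 12.7% and Hotair at 18.3% to Ube4bos3 at 90.6%, Atxn7l1os2 at 91.2% and Bmncr at 92.6%. These last 3 are levels of annotated 3′ ends, and the 5′ ends were at 91.7% in Ube4bos3, 18.8% in Atxn7l1os2 and 84.8% in Bmncr. The far CpG-rich ones began with Oip5os1, Mir22hg and Chaserr and ended with Unc45bos at 20.8%, Norad and Peg13. Both ends of the scale were thus reached at either distance in the CpG-intermediate class.

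Members were then grouped by what their transcripts are known for, in 7 lists. Each list is given by its counts, split by CpG class beside the share over all autosomal windows of that class. Host genes of small nucleolar RNAs, which carry the RNAs that guide ribosomal RNA modification in their introns, were all CpG-rich. Of the 20, 19 were low, which is near the 96.4% of all CpG-rich windows, and the median was 6.92%. They ran from Snhg3 at 3.63% (2.39% to 5.28%), Snhg5 at 3.71% and Snhg6 at 3.76% to Snhg7 at 11.8%, Snhg12 at 14.5% and Snhg4 at 18.7%, the unresolved one. The far Snhg5 and Snhg17 were at 3.71% and 6.43%, and the near Snhg1 and Gas5 at 5.50% and 7.54%, so that low levels occurred at either distance.

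Widely expressed lncRNAs had a median of 8.50% over 14 windows, and 11 of the 14 were far. Low were 8 of the 10 CpG-rich ones, where 96.4% of all were low, and 2 of the 4 CpG-intermediate ones, where 25% of all were low, and the remaining 4 were unresolved. Oip5os1, also known as Cyrano, was at 2.58% (1.54% to 4.05%), Chaserr, which restrains its neighbor Chd2, at 3.23% (2.38% to 4.27%) and Tug1, divergent from Morc2a, at 3.30% (2.33% to 4.52%). The highest were Neat1, the scaffold of paraspeckles, at 17.1%, Norad, which binds Pumilio proteins, at 21.2% (15.6% to 27.7%) and Rbakdn at 21.7%. Norad had reads on 26 of its 66 CpGs. Malat1, an abundant nuclear RNA, was at 8.36% with 27 CpGs, and of the 4 CpG-intermediate windows in this list none was high.

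LncRNAs listed as neighbors of developmental regulators, at any distance, had a median of 9.71% over 34 windows. Of these, 13 were near, 10 between 1 and 5 kb and 11 far. Low were 20 of the 21 CpG-rich ones (96.4% of all) and 4 of the 9 CpG-intermediate ones (25% of all), and high were 1 of the 9 (34.4% of all) and 1 of the 4 CpG-poor ones (59.5% of all). The low count thus lay near the share of all windows in the CpG-rich class. In several the flanks were low as well. Hoxb3os was at 3.38% with flanks at 26.3%, Foxd2os at 4.66% with 19.7% and Hottip, at the distal end of the HoxA cluster, at 15.3% with 6.05%. Fendrr, 1276 bp from Foxf1, was at 6.77% with 12.6% and Six3os1 at 7.08% with 9.77%. Tunar, a lncRNA of pluripotent and neural cells, was at 5.10% within flanks at 77.4%. Of the CpG-poor members, Hotair in the HoxC cluster, with 16 CpGs, was at 18.3% (11.7% to 26.5%) and Dlx6os1, with 13, at 26.0%. The highest were Sox2ot at 67.0%, Halr1 upstream of the HoxA cluster at 74.1% (at its 3′ end) and Rmst at 74.5%, and all 3 lay more than 40 kb from a protein-coding end.

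The imprinted list is the one with most intermediate calls, 6 of 10 windows. They were all 5 of the CpG-intermediate windows, where 15.7% of all were intermediate, and 1 of the 3 CpG-rich ones, where 1.06% of all were. Meg3 was at 33.6% (27.5% to 40.1%), Kcnq1ot1, the antisense transcript that silences its cluster on the paternal copy, at 36.8% (31.6% to 42.2%), H19 at 39.2% (34.6% to 44.0%), Airn, which silences Igf2r in the same way, at 39.6% (34.8% to 44.6%), Peg13 at 42.7% and Mirg at 52.1%. Each of the 6 lay below its flanks, H19 by the least (flanks at 51.9%) and Airn by the most (flanks at 80.8%). One further gene of this list did not meet the limits on read counts and covered CpGs. Igf2os was at 4.004% and Dio3os at 7.11%, both CpG-rich and low. Nctc1 was at 77.1% and Snhg14 at 87.5% (67.6% to 97.3%) of 24 read counts, both CpG-poor and high. Mirg and Snhg14 were measured at the annotated 3′ end, and their other ends were at 84.3% and 55%.

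LncRNAs of pluripotent cells, most of them from the Platr series named for transcripts found in embryonic stem cells, had no CpG-rich window. The median of the 18 windows was 61.1%. Of the 13 CpG-poor ones 5 were high (59.5% of all), 2 intermediate (5.57% of all) and 1 low (0.66% of all). Of the 5 CpG-intermediate ones 1 was high (34.4% of all), 2 intermediate (15.7% of all) and 1 low (25% of all). Platr22 was at 8.63% (5.49% to 12.8%) and Lncenc1, a lncRNA of naive embryonic stem cells, at 9.93% (5.54% to 16.1%) with 17 CpGs. Lncenc1 was among the 20 low windows of 6452 far CpG-poor ones. Platr14 was at 34.2%, Platr10 at 36.1%, Platr27 at 35.7% and Platr8 at 36.7%, all intermediate. Eprn at 78.9%, Platr7 at 81.1% and Platr3 at 85.2% were the highest. In these last 3 the measured end was the annotated 3′ end, and the 5′ ends were at 64% in Eprn, 61.8% in Platr7 and 76.2% in Platr3.

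LncRNAs of differentiated tissues had a median of 76.2% over 10 windows, none of them CpG-rich. High were 3 of the 5 CpG-poor ones (59.5% of all) and 3 of the 5 CpG-intermediate ones (34.4% of all). Myoparr, beside the start of the muscle regulator Myog, was at 80.7% (74.0% to 86.3%), and the Myog window was at 74.5%. Myhas at a myosin heavy chain gene was at 76.2% and Mhrt of the heart at 83.2% (at its 3′ end, with the 5′ end at 61.3%). The far Ifngas1, 110631 bp from the interferon gamma gene, was at 80.8%. The heart lncRNA Bvht was the exception at 12.5% (8.40% to 17.7%) with 25 CpGs, and its flanks were at 63.0%. Mirt2 was intermediate at 50.8%, and Mirt1, measured at its 3′ end with 31 read counts, was unresolved at 48.4%. Myoparr and Myhas lay near a protein-coding start, with Myoparr above the far median of its class (70.9%) and Myhas close to it (76.4%).

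**Figure D5:**
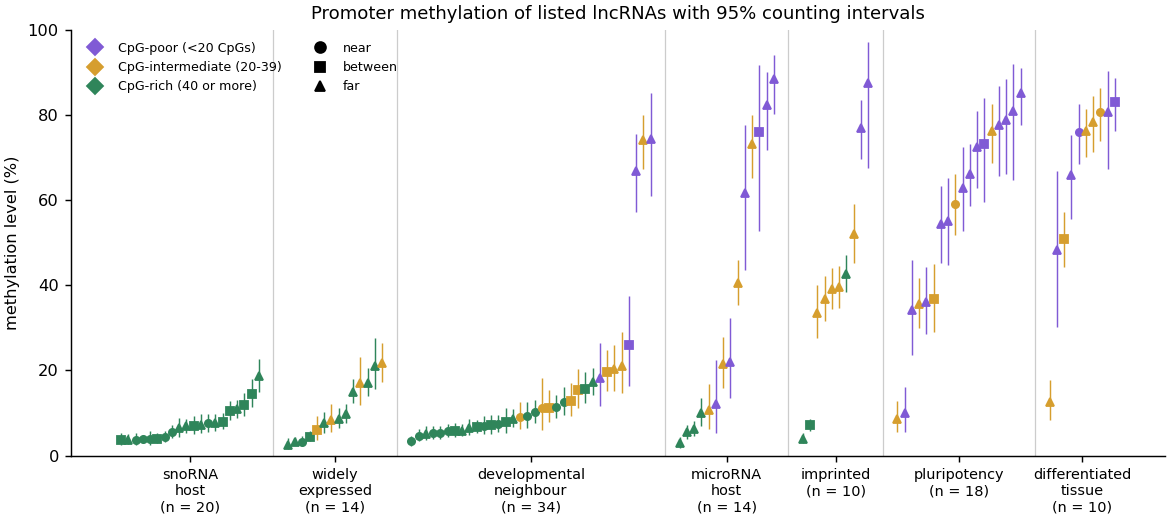
Methylation level (vertical axis, percent) of each measured lncRNA of 7 lists (groups along the horizontal axis, ordered by level within a list), colored by CpG class and shaped by distance group, with exact 95% counting intervals as bars. Host genes of small nucleolar RNAs all lie under 20%, 6 imprinted genes lie between 33.6% and 52.1%, and the pluripotency and tissue lists spread from under 13% to over 80%.

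MicroRNA host genes were mixed, with a median of 21.7% over 14 windows. Low were all 4 CpG-rich ones (96.4% of all) and 1 of the 4 CpG-intermediate ones (25% of all), and high were 1 of these 4 (34.4% of all) and 2 of the 6 CpG-poor ones (59.5% of all). The CpG-rich ones were Mir22hg (2.91%), Mirc35hg (5.42%), Mir9-3hg (6.19%) and Mir124a-1hg (9.94%). The high ones were Mir99ahg (73.2%), Mir133a-1hg (82.4%) and Mir17hg, and Mir155hg was unresolved at 76.2% of 21 read counts at its 3′ end. Mir17hg, host of the miR-17 to miR-92 cluster, was at 88.5% (80.4% to 94.1%), while the flanks of its measured window were at 4.62%. The annotated start used here lies within the cluster itself, since the window holds the hairpins of Mir19a, Mir20a, Mir19b-1 and Mir92-1.

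Hairpins of 24 microRNAs lay in 16 lncRNA windows. All 6 CpG-rich ones were low (96.4% of all), as were 1 of the 3 CpG-intermediate ones (25% of all) and 1 of the 7 CpG-poor ones (0.66% of all). High were 4 of the CpG-poor ones (59.5% of all) and 1 of the CpG-intermediate ones (34.4% of all). The latter, 6430411K18Rik, holds Mir127 and was at 90.2% of 368 read counts over 35 CpGs. It lies on chromosome 12 between Meg3 and Mirg but was not in the imprinted list. Windows at 2 clusters known from pluripotent cells of the mouse were among the low ones. D7Ertd143e (chromosome 7, 3218284 to 3219284), beside the 3′ end of Nlrp12, holds Mir290a, Mir290b, Mir292 and Mir292b and was at 5.08% (3.21% to 7.59%) of 433 read counts, with flanks at 47.8%. Gm51018 (chromosome 3, 127544589 to 127545589), inside Larp7, holds Mir302a, Mir302b and Mir302c and was at 4.17% (0.509% to 14.3%) of 48 read counts over 10 CpGs, with flanks at 45.9%. It is one of the 20 low far CpG-poor windows. These windows were picked after their values were seen. For the hairpins in the D7Ertd143e, Gm51018 and methylated Mir17hg windows, the annotation used lists 7, 5 and 7 mature microRNAs. It does not list both arms of Mir292, Mir302a and Mir19a, so these counts and the shared seeds may be incomplete. Of the 19 listed, the 6 that share their seed with another of the 19 are shown in pairs, with the seed, bases 2 to 8, in capitals.
miR-290a-5p (chr7:3218639-3218660, plus strand): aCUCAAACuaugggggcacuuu
miR-292a-5p (chr7:3219200-3219221, plus strand): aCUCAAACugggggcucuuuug
miR-302b-5p (chr3:127545238-127545260, plus strand): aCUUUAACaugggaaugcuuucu
miR-302c-5p (chr3:127545368-127545389, plus strand): gCUUUAACaugggguuaccugc
miR-19a-3p (chr14:115044048-115044070, plus strand): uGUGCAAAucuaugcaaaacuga
miR-19b-3p (chr14:115044358-115044380, plus strand): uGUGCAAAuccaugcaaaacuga
Each pair came from a single window, at 5.08%, 4.17% and 88.5% in the order shown.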

How the data were processed

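In bisulfite sequencing of whole genomes, unmethylated cytosines are read as thymine and methylated ones as cytosine. The deposited values are counts, with 1 methylated and 1 unmethylated read count for each strand of each CpG, in a single table for the group. Bowtie2 2.1.0, Bismark 0.12.5, cutadapt 1.3 and the genome mm10 are listed by the submitters' processing notes, without saying what each did. Not given in the sources used here were the pooling of the 2 samples and any removal of duplicate reads, and duplicates kept would make the intervals too narrow.

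The 2 strands of each CpG were added, and no count was normalized. Gene ends and classes came from RefSeq (GRCm38.p6), and start positions, strands and sequences from the RefSeq promoter table, which held 8708 of the 11518 members. Levels, exact Clopper-Pearson intervals and medians were computed with Python 3.11.15, numpy 2.4.6, pandas 2.3.3 and scipy 1.17.1, and the script was tested on simulated data. Flanks are the CpGs 2 to 5 kb from the measured end. Intervals of medians are exact binomial order-statistic intervals at 95% over windows.

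Named were the 3 lowest and 3 highest of each list and, with at least 100 read counts and without Gm and Rik symbols, of each distance and CpG class. Also named were up to 10 CpG-rich windows called high or intermediate and up to 10 far CpG-poor ones called low, by read counts. Mir99ahg and other list members, windows with microRNA hairpins, Gm29371, Gm36816, Gm51442, AY036118 and the sequence of Meg3 were chosen after their values were seen. The members and lists were chosen with earlier results of these data known. Of the list entries, 34 developmental neighbor, 10 differentiated tissue, 10 imprinted, 14 microRNA host, 18 pluripotency, 20 small nucleolar RNA host and 14 widely expressed genes were measured. The alternatives were other limits on reads, CpGs, windows, strands, depth, distance, classes and calls. Added after the data were seen were annotated 5′ ends only, far windows away from internal starts, near windows at protein-coding starts only and near CpGs outside the neighbor's window.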

Additional observations from a re-analysis of the deposited data

How the results depend on the processing

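No difference between far and near medians changed sign under any of 23 alternatives. The gap ran from 23.8 to 55.1 points in the CpG-intermediate class, 1.31 to 8.20 in the CpG-poor and 0.962 to 7.68 in the CpG-rich class. Of 138 medians 106, of 69 differences 53, of 528 shares of calls 448 and of 1125 levels of single genes 931 stayed within the limits set for calling a value moved. Depth limits single windows, since the median width of a counting interval in the CpG-poor class was 17.3 points near and 18.7 points far. No paired analysis was possible because the table has no column for each sample, and leaving out a sample was not possible for the same reason. The cause of the changes below was not tested.

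With at least 50 read counts, 1.28% of far CpG-rich windows were high. With at least 100, 0.974% of them were high, and 2.29% of near and 0.633% of far CpG-poor windows were low. With at least 10 covered CpGs the far CpG-poor median was 76.7%. With 250 bp on either side, the CpG-rich medians were 4.88% near and 6.37% far, a gap of 1.497 points, 0.0923% of near CpG-rich windows were high and 0.602% of near CpG-poor ones low. With 1000 bp, the CpG-rich medians were 7.14% near and 10.3% far, the far CpG-poor median was 75.9% and 6.8% of near CpG-poor windows were low. The mean of CpG fractions gave a near CpG-rich median of 5.65%. Minus strand counts alone gave a far CpG-poor median of 76.7%, with 0.129% low, and 1.29% of far CpG-rich windows high. At annotated starts the far medians were 75.6% (CpG-poor) and 67.7% (CpG-intermediate). Outside gene bodies the far medians were 75.3%, 68.5% and 8.65% from poor to rich, the gaps 48.4 points (CpG-intermediate) and 3.30 points (CpG-rich), and 1.65% of far CpG-rich windows were high.

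With class limits of 15 and 30 CpGs, low calls among CpG-poor windows were 0.719% near and 0.0894% far. The CpG-intermediate medians were 51.3% near and 75.1% far, a gap of 23.8 points, with 15.7% of near and 1.57% of far windows low and 35.9% of near ones high. The CpG-rich medians were 5.73% near and 13.4% far, a gap of 7.68 points, with 0.329% of near and 17.7% of far windows high and 56.0% of far ones low. With limits of 25 and 50 CpGs, the near CpG-poor median was 67.8% (gap 8.20 points), with 6.02% of near and 0.529% of far windows low. The CpG-intermediate medians were 10.5% near and 55.3% far, a gap of 44.7 points, with 70.2% of near and 19.6% of far windows low and 5.32% of near ones high. The CpG-rich medians were 4.95% near and 6.25% far, a gap of 1.304 points, with 1.40% of far windows high.

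Without Gm, LOC and Rik symbols, the far CpG-poor median was 74.8% (gap 1.31 points), with 0% of near and 1.28% of far windows low. The CpG-intermediate medians were 15.6% near and 52.7% far, a gap of 37.1 points, with 12.1% of far windows low, and 0% of far CpG-rich windows were high. With call limits of 10% and 70%, low and high calls among CpG-poor windows were 0% and 25.4% near and 0.0155% and 33.1% far. Low calls among CpG-intermediate windows were then 8.18% near and 0.992% far, high calls 35.6% far, and 47.2% of far CpG-rich windows were low.

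The remaining alternatives were chosen after seeing the data. With annotated 5′ ends only, 0% of near and 0.508% of far CpG-poor windows were low, and the far medians were 75.1% (CpG-poor) and 66.9% (CpG-intermediate, gap 47.7 points). With near windows at protein-coding starts only, the near medians were 68.4% (CpG-poor, gap 7.95 points) and 15.8% (CpG-intermediate, gap 55.1 points), with 7.85% of the latter high. With near CpGs outside the neighbor's window, the near medians were 74.4%, 33.4% and 6.74% from poor to rich and the gaps 1.95, 37.5 and 0.962 points. Far windows away from internal starts moved none of these medians, gaps or shares of low and high calls.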
